A study of Mus musculus with 16 samples.

Results

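The genes described here are 10 that encode rapidly induced transcription factors: the AP-1 subunits Fos, Fosb, Fosl1, Fosl2, Jun, Junb and Jund, their relative Atf3, and Egr1 and Myc. They were chosen by gene symbol from the 20525 genes of the deposited expression matrix. The rule used no measured value, but earlier results of these data were known. Genes entered the test where 4 or more libraries had a normalized count of 10 or more. All 10 did, as did 18035 genes in all. Fosl1 did so only through glycerol libraries, since its PBS values were 0 to 3.13. RNA came from lysed frozen kidney sections, 30 µm thick, of mice aged 8 weeks on a background given as C56BL/6. The mice were wild type (WT) or C3-/-, a genotype aimed at the central complement protein C3, and no label names a further allele or a Cre driver. Each genotype received either PBS or, to cause rhabdomyolysis, an injection of 7.5 ml/kg of 50% glycerol into thigh muscle. The 2 genotypes and 2 injections make 4 groups of 4 libraries each, and neither the time from injection to sampling nor the sex of the mice is labelled. Nothing in the labels ties each library to a separate animal, so the p-values measure the spread between libraries, which may be technical.

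AP-1 is a dimer of basic leucine zipper proteins. A Fos family protein must pair with a Jun family protein to bind DNA, while Jun proteins can also pair among themselves or with ATF proteins, and the makeup of the dimer sets which genes it acts on. Fos, Jun and Egr1 are classical immediate early genes: growth factors, stress and injury switch them on within minutes through mitogen-activated protein kinases and serum response factor, without new protein synthesis, and their transcripts decay quickly. Fosl1, which encodes Fra-1, and Fosl2, which encodes Fra-2, follow more slowly and lack the strong activation domains of Fos and FosB. In kidney tubules these factors are induced by ischemia, toxins and heme, and Atf3 and Myc are well known injury-response genes there.

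The upstream sequences of 4 members are shown because they belong to classical rapid-response genes whose values are set side by side below. Over all 16 libraries Fos and Jun were not called after glycerol in either genotype, Junb was called in both, and Fosb differed between the genotypes after PBS. The C3-/- calls of Fos, Jun and Junb depend on the fit, as given with each gene. Each run holds the 250 bases before the RefSeq transcription start on GRCm38.p6, 5′ to 3′ along the gene's strand, with motif matches in capitals. Fos lies on the plus strand at chr12:85473640-85473889, Jun on the minus strand at chr4:95052223-95052472, Junb on the minus strand at chr8:84978749-84978998, and Fosb on the minus strand at chr7:19310046-19310295.
Fos: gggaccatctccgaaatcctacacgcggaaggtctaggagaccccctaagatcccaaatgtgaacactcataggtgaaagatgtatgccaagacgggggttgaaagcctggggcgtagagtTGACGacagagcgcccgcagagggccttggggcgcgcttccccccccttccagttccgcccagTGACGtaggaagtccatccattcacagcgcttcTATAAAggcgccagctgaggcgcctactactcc
Jun: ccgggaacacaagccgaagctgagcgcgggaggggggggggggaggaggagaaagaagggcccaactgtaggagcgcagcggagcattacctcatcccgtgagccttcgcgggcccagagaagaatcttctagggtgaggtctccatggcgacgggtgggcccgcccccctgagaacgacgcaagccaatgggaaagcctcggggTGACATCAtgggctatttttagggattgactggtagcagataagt
Junb: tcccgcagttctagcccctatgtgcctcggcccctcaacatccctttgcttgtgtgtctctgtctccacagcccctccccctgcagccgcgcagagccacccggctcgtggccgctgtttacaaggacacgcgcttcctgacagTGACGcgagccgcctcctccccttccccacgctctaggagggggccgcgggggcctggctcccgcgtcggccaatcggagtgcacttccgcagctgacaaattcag
Fosb: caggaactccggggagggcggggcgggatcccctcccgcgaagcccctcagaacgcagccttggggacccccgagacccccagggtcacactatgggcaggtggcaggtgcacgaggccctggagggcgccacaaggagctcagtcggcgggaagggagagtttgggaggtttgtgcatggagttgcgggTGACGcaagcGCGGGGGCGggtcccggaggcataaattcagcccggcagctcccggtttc

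The capitals mark TGACG, the core of a cyclic AMP response element, in Fos (first bases 129 and 66 before the start), Junb (106 before it) and Fosb (60 before it). They also mark TGACATCA, an 8-base AP-1 and ATF site, in Jun (45 before the start), the EGR motif GCGNGGGCG in Fosb (50 before it), and TATAAA in Fos (33 before it). RefSeq windows of 300 bases, from 250 before to 50 after the start, were at hand for 7 of the 10 members (Fos, Fosb, Fosl2, Jun, Junb, Jund and Atf3). On either strand, TGACG was found in 4 of the 7, the fourth being Atf3, against 20.8% of 32851 promoter windows of the same length. GCGNGGGCG was in 2 of the 7 (Fosb and Fosl2, against 5.55%), TATAAA in 2 (Fos and Junb, against 13.6%) and TGACATCA in 1 (Jun, against 3.62%). The TATAAA of Junb begins right after the 250 bases shown, so it is not in the printed run. The letters of the AP-1 consensus TGACTCA (5.2% of all windows), the full element TGACGTCA (1.79%), the E-box CACGTG (7.15%) and the CArG box of serum response factor (1.63%) were in none of the 7. TGACG is part of TGACGTCA, so those 2 searches overlap. Bases outside the windows were not searched, so a motif absent from a window may still lie near that gene. Egr1, Fosl1 and Myc had no window. GC content ran from 46.7% (Jund) to 68.3% (Fosb), against a median of 52.7% over all windows. These are letter matches and were not tested as binding sites. The Jund window lies upstream of the gene start in the GENCODE annotation, and those of Fosl2 and Atf3 lie inside the annotated genes. The printed Junb run ends at 84978749, upstream of the GENCODE start at 84978718, so its distances hold for the RefSeq start. For Fosb the GENCODE start at 19310051 falls inside the printed run.

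Several facts of the series touch the members. The S numbers in the sample descriptions run from S1 to S13 over 13 libraries, while the numbers 3, 4 and 5 occur again on WT glycerol replicate 4 and on replicates 1 and 3 of C3-/- glycerol. Those 3 libraries stood apart on the first principal component (45% of the variance), with scores of 96.35 to 220.4 against -58.56 to 39.53 in the other 13, and no PBS library is among them. The per-kilobase orders and likeness values below include them. Many other results are given with and without them, the latter as "within S1 to S13", where 3 WT and 2 C3-/- glycerol libraries remain. C3 itself was at 334.9 to 470.5 in WT PBS and at 563.8 to 1140 in C3-/- PBS, and at 1712 to 4718 and 1457 to 8008 after glycerol. Total signal of C3 was thus higher in every C3-/- PBS library than in any WT PBS library. After glycerol it was lower than in any WT library in the 2 C3-/- libraries within S1 to S13 (1457 and 1587) and higher in the other 2 (5495 and 8008). The sources used here do not say which part of the gene was deleted, and each statement on C3-/- rests on the labels. The Y-linked Ddx3y was at 481.5 or more in 11 libraries and at 1.118 or less in the other 5, all of them C3-/- (3 PBS and 2 glycerol). The read depth behind the normalized counts is unknown. Each of 10 kidney segment markers had signal in every group, and 4 adipocyte markers were looked for and none is in the matrix.

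In WT kidney after glycerol 5 of the 10 genes rose and none fell: Fosl1, Myc, Atf3, Junb and Fosl2. In C3-/- kidney 4 rose and none fell: Fosl1, Atf3, Myc and Junb. Fosl1, part of both counts, met the filter through glycerol libraries alone. Fos, Jun and Egr1, the archetypal immediate early members, were called in neither genotype over all 16 libraries. With S number list and Y-linked signal as terms, all 3 were called higher in C3-/- (Fos 1.91, adjusted p = 0.0181, Jun 0.76, adjusted p = 0.0188, and Egr1 1.63, adjusted p = 0.00309), and none in WT. The call rule was an adjusted p under 0.05 in limma, a linear model fitted to all genes, and by it 12.5% of all tested genes were higher after glycerol in WT and 3.68% in C3-/-. The median log2 difference of the members was 1.36 in WT and 1.45 in C3-/-, against -0.11 and -0.06 over all genes tested. All differences below are on the log2(normalized count + 1) scale with the standard error, which understates the change of low genes, and the adjusted p is limma's. Within S1 to S13 the members called higher were 6 in WT and 6 in C3-/-, where 26.8% and 12.5% of all genes were. Every glycerol library lay above every PBS library for 6 members in WT (the 5 called and Jund) and for 5 in C3-/- (the 4 called and Fosb), which 18.2% and 9.53% of all genes also did. The authors' deposited tables called 6 members higher in WT (the 5 above and Jund) and 7 in C3-/- (the 4 above, Fosb, Fosl2 and Jund), with none lower, against 15.9% and 10.4% of their genes.

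The makeup of the tissue moved with glycerol as well. The 10 kidney segment markers summed to 407000 to 466900 in WT PBS and 83500 to 211200 in WT glycerol, where 6 of the 10 fell. In C3-/- they summed to 414900 to 441400 after PBS and 212000 to 383100 after glycerol, where 1 of the 10 fell. Of 7 tested neutrophil markers 5 rose in WT, and in C3-/- limma called none, with 4 at an unadjusted p below 0.05. Within S1 to S13, 4 of 5 tested rose in WT and 1 of 5 in C3-/-, against 26.8% and 12.5% of all genes. The part of these shifts in the members' differences was not tested, and in whole tissue fewer cells of a type cannot be told apart from less RNA per cell.

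**Figure D1:**
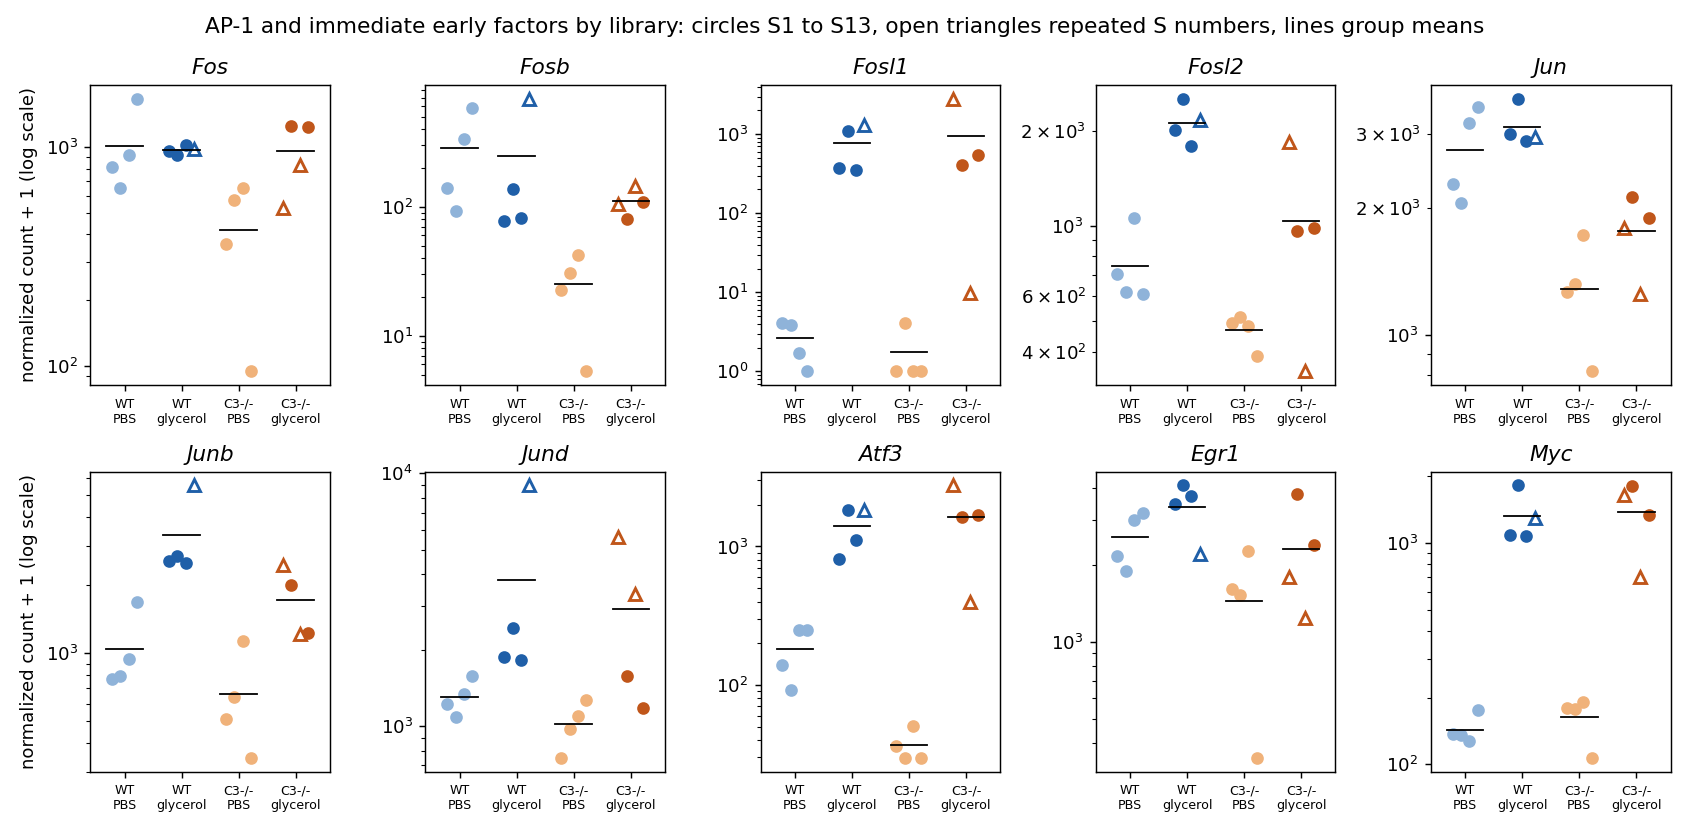
Normalized count + 1 (log axis) of each member in each of the 16 libraries by group, with filled circles for the S1 to S13 libraries, open triangles for the 3 libraries with repeated S numbers, and a line at each group mean. Myc and Atf3 separate glycerol from PBS in both genotypes, Fos and Jun do not, and C3-/- PBS libraries sit lowest for Fosb and Atf3.

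Fosl1 (ENSMUSG00000024912; GRCm38 chromosome 19, 5447547 to 5455946, plus strand, 4 exons) encodes Fra-1, the Fos family member most tied to epithelial migration. In replicate order its normalized counts were 3.114, 2.907, 0.711 and 0 in WT PBS and 370.7, 1113, 348.5 and 1298 in WT glycerol. The C3-/- PBS libraries had 0, 3.13, 0 and 0, and the C3-/- glycerol libraries 2825, 402.7, 8.681 and 549.3. Every glycerol library lay above every PBS library of its genotype, from nearly no signal. The lowest glycerol value, 8.681 in C3-/- glycerol replicate 3, was far under the other 7. It and the highest, 2825 in C3-/- glycerol replicate 1, came from libraries with repeated S numbers. Because Fosl1 met the filter only through the glycerol libraries, where it was high, its entry depended on the difference tested. Its calls and its place in the counts of members are therefore no separate support. Fosl1 rose by 8.17 ± 1.24 in WT (adjusted p = 0.000321) and by 7.61 ± 1.24 in C3-/- (adjusted p = 0.00235). These sizes depend on the pseudocount and were 6.12 and 5.21 with a pseudocount of 8. Within S1 to S13 they were 7.84 and 8.37. The response in C3-/- minus that in WT was not called (-0.55 ± 1.76, 95% interval -4.31 to 3.2, adjusted p = 0.983). Ccdc85b overlaps Fosl1 on the other strand. Whether the counting used strand is not given, so reads of such a pair cannot be told apart, which also holds for the overlaps named below.

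Fosl2 (ENSMUSG00000029135; chromosome 5, 32135801 to 32157842, plus strand, 4 exons) encodes Fra-2. Its normalized counts were 701.5, 614.9, 1059 and 607.9 in WT PBS and 2006, 2527, 1789 and 2157 in WT glycerol. In C3-/- they were 492.1, 512.5, 480.8 and 386.6 after PBS and 1839, 965.4, 345.1 and 981.4 after glycerol. The WT groups did not overlap, whereas C3-/- glycerol replicate 3 lay below all PBS libraries of its genotype. Fosl2 rose in WT by 1.53 ± 0.36, 2.84-fold by the group means (adjusted p = 0.0065; 1.52 within S1 to S13). In C3-/- the difference was 0.92 ± 0.36 (adjusted p = 0.143), and it was called without C3-/- glycerol replicate 3 (1.37, adjusted p = 0.00421) and within S1 to S13 (1.06, adjusted p = 0.00322). Without C3-/- glycerol replicate 1 it was 0.57 (adjusted p = 0.435). The difference between the responses was -0.61 ± 0.51 (95% interval -1.71 to 0.48, adjusted p = 0.821).

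Fos (ENSMUSG00000021250; chromosome 12, 85473890 to 85477273, plus strand, 4 exons), the founding member of its family, gave 808.3, 649.5, 917.2 and 1670 in WT PBS and 962.5, 923, 1020 and 977.4 in WT glycerol. The glycerol libraries fell within the range of the PBS libraries and were much less spread. The C3-/- PBS libraries had 359.8, 572.7, 651.8 and 93.6, and the C3-/- glycerol libraries 526, 1250, 826.1 and 1244. The difference was 0.03 ± 0.49 in WT (95% interval -1.02 to 1.09, adjusted p = 0.968) and 1.43 ± 0.49 in C3-/- (adjusted p = 0.0992; 1.89 with adjusted p = 0.0399 within S1 to S13). Without C3-/- PBS replicate 4 alone the C3-/- difference was 0.82 (adjusted p = 0.199). Neither value shows that Fos was unchanged, and the WT interval spans about a doubling or halving.

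Fosb (ENSMUSG00000003545; chromosome 7, 19302696 to 19310051, minus strand, 2 merged exons) encodes FosB and its stable short form. Its values were 137.8, 92.56, 334.9 and 582.1 in WT PBS and 75.99, 135.9, 81.02 and 688.6 in WT glycerol. WT glycerol replicate 4, which has a repeated S number, was above the PBS range, and replicates 1 and 3 were below it. The C3-/- PBS libraries had 21.57, 29.77, 41.32 and 4.304, and the C3-/- glycerol libraries 104.2, 79.97, 143.2 and 108.6, with no overlap. The difference was -0.52 ± 0.76 in WT (adjusted p = 0.635; -1.24 within S1 to S13) and 2.44 ± 0.76 in C3-/- (adjusted p = 0.0718). By group means the C3-/- ratio was 4.5, and all 4 glycerol libraries of that genotype lay within or below the range of the WT PBS libraries.

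Per kilobase of merged exon, which allows levels of different genes to be set side by side, Fos made up a median of 77.9% of the summed Fos family signal in WT PBS (70.5 to 82) and 41.3% in WT glycerol (30 to 54). Fosl1 went the other way, from 0.206% (0 to 0.402) to 33.6% (21.3 to 46). In C3-/- the Fosl1 share was 0% (0 to 0.509) after PBS and 26.5% (1.03 to 76.4) after glycerol, and that of Fos 77.1% (49.5 to 83.1) and 60.4% (12.3 to 84.8). The family sum was 355.9 to 865.9 per kilobase in WT PBS and 803.1 to 1387 in WT glycerol, and 80.43 to 333.4 and 414.1 to 1820 in the C3-/- groups. Both ends of the C3-/- glycerol ranges of Fos and Fosl1 came from libraries with repeated S numbers. Within S1 to S13 the C3-/- glycerol libraries had 23.5% and 29.4% for Fosl1 and 63.1% and 57.6% for Fos. These shares are descriptions with no test. The WT glycerol shares of both genes lay outside the range of the WT PBS libraries, while in C3-/- those of Fos overlapped.

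**Figure D2:**
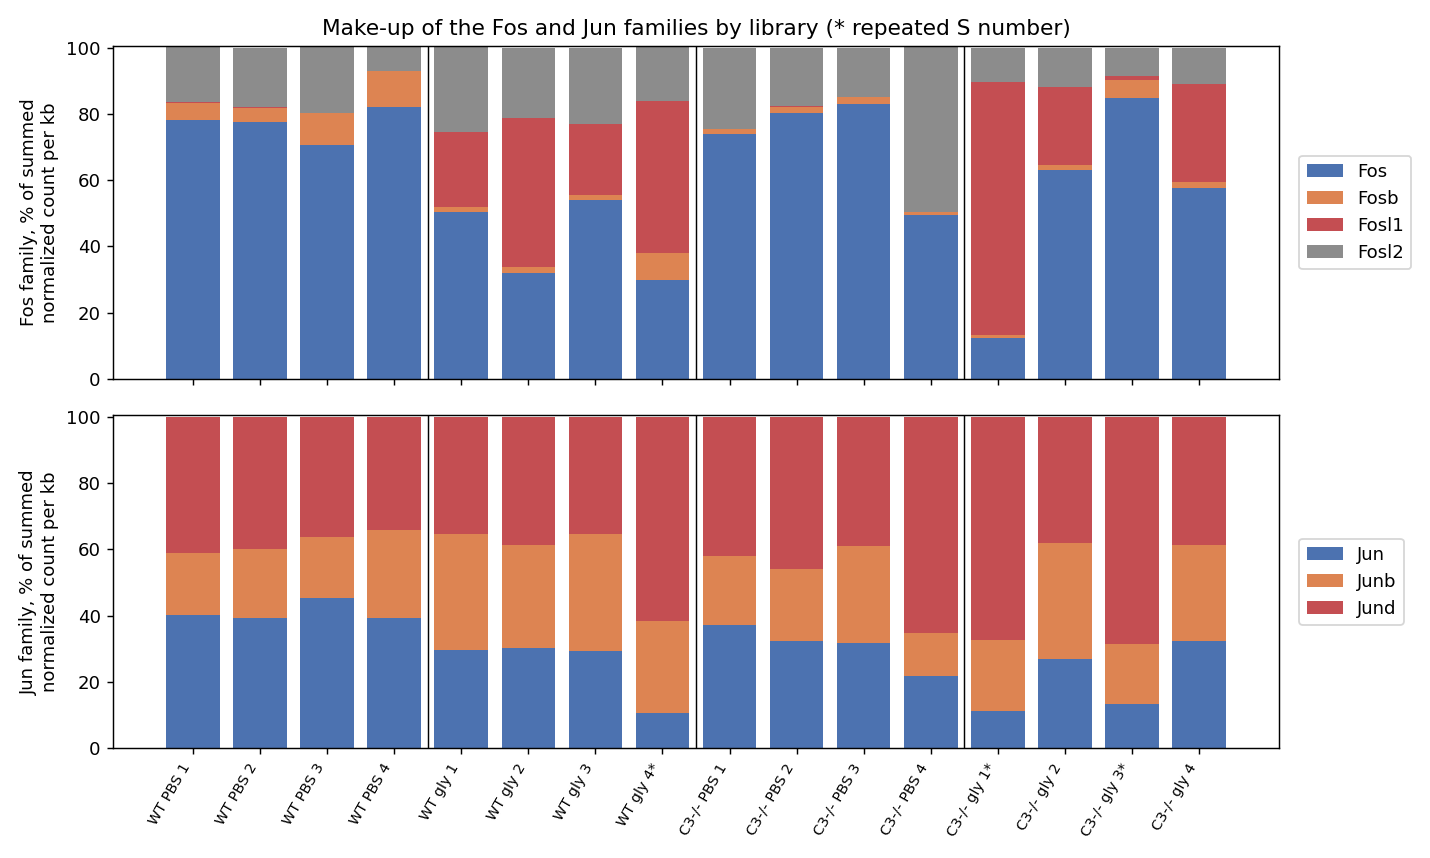
Share of each gene (%) in the summed normalized count per kilobase of the Fos family (top) and the Jun family (bottom) in each library, with an asterisk on the 3 libraries with repeated S numbers. Fosl1 appears in the glycerol libraries (1.03 to 76.4% of the Fos family), and the 4 highest Jund shares are those of the 3 marked libraries and of C3-/- PBS replicate 4.

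Among the Jun genes, Jun (ENSMUSG00000052684; chromosome 4, 95049034 to 95052222, minus strand, 1 exon) encodes c-Jun, the strongest activator of the family. Its normalized counts were 2282, 2053, 3193 and 3477 in WT PBS and 3009, 3649, 2897 and 2962 in WT glycerol. They were 1260, 1321, 1725 and 815.9 in C3-/- PBS and 1794, 2121, 1247 and 1891 in C3-/- glycerol. Within each genotype PBS and glycerol overlapped, and across genotypes they did not: every C3-/- library lay below every WT library given the same injection. The glycerol difference was 0.21 ± 0.24 in WT (95% interval -0.29 to 0.72, adjusted p = 0.529) and 0.48 ± 0.24 in C3-/- (-0.02 to 0.99, adjusted p = 0.22). In C3-/- it was 0.28 without C3-/- PBS replicate 4 (adjusted p = 0.45). The antisense gene Junos overlaps Jun on the other strand.

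Junb (ENSMUSG00000052837; chromosome 8, 84974484 to 84978718, minus strand, 3 merged exons), whose protein can oppose c-Jun at AP-1 sites, had 770, 791, 946.9 and 1692 in WT PBS and 2551, 2700, 2504 and 5542 in WT glycerol. In C3-/- it had 510.8, 641.8, 1138 and 343 after PBS and 2449, 2007, 1221 and 1227 after glycerol. No group pair of PBS and glycerol overlapped. Junb rose by 1.65 ± 0.38 in WT (3.17-fold by the means, adjusted p = 0.00569; 1.38 within S1 to S13) and by 1.46 ± 0.38 in C3-/- (2.62-fold, adjusted p = 0.0376; 1.39 within S1 to S13). In C3-/- the adjusted p was above 0.05, with differences of similar size, without C3-/- glycerol replicates 1 or 2 (1.27, adjusted p = 0.126, and 1.36, adjusted p = 0.0567) and without C3-/- PBS replicates 1, 2 or 4 (1.38, 1.49 and 1.19, adjusted p = 0.111, 0.0852 and 0.105). With the S number list as a term it was 1.18 (adjusted p = 0.0627). Prdx2 overlaps Junb on the opposite strand.

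Jund (ENSMUSG00000071076; chromosome 8, 70698949 to 70700616, plus strand, 1 exon) encodes the steadily expressed JunD. Its values were 1220, 1091, 1335 and 1574 in WT PBS and 1877, 2446, 1820 and 8972 in WT glycerol. In C3-/- they were 746.4, 975.5, 1100 and 1271 after PBS and 5580, 1576, 3344 and 1180 after glycerol. The 3 highest values of the gene, 3344 to 8972, were those of the 3 libraries with repeated S numbers. The difference was 1.19 ± 0.5 in WT (adjusted p = 0.0948) and 1.27 ± 0.5 in C3-/- (adjusted p = 0.14). Within S1 to S13 these were 0.65 (adjusted p = 0.00952, called) and 0.44 (adjusted p = 0.15), while the authors' deposited tables, which include all libraries, gave 1.53 ± 0.52 (adjusted p = 0.0158) and 1.51 ± 0.52 (adjusted p = 0.0307). As a share of the Jun family per kilobase, Jund took 61.7 to 68.5% in those 3 libraries. The Jund share had a median of 38% in WT PBS (34.1 to 41) and 43.9% in C3-/- PBS (38.9 to 65.3). The antisense gene Gm11175 overlaps Jund.

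Atf3 (ENSMUSG00000026628; chromosome 1, 191170296 to 191218039, minus strand, 5 merged exons) encodes a stress-induced factor that pairs with Jun proteins and mostly represses. Its normalized counts were 139.6, 90.94, 247.3 and 247.4 in WT PBS and 810.7, 1819, 1115 and 1841 in WT glycerol. They were 35.21, 28.67, 49.79 and 28.91 in C3-/- PBS and 2761, 1641, 395.1 and 1675 in C3-/- glycerol. Glycerol and PBS did not overlap in either genotype, and the C3-/- PBS group was the lowest of the 4. Atf3 rose by 2.97 ± 0.51 in WT, 7.7-fold by the means (adjusted p = 0.000707), and by 5.2 ± 0.51 in C3-/-, 45.4-fold (adjusted p = 4.24e-05). Both calls held within S1 to S13 (2.81 and 5.54). The small RNA gene Gm24748 overlaps Atf3 on the other strand.

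The Atf3 response was larger in C3-/- than in WT by 2.23 ± 0.71 (95% interval 0.71 to 3.75), which was not called over all genes (adjusted p = 0.214). The same difference was called within S1 to S13 (2.72, adjusted p = 0.0103), with S number list and Y-linked signal as terms (2.49, adjusted p = 0.0341) and without C3-/- glycerol replicate 3 (2.81, adjusted p = 0.0338). After glycerol the genotypes differed in Atf3 by 0 ± 0.51 (95% interval -1.08 to 1.07), and after PBS by -2.23 ± 0.51.

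Egr1 (ENSMUSG00000038418; chromosome 18, 34859823 to 34864984, plus strand, 2 exons) encodes a zinc finger factor outside AP-1 that serum response factor controls together with Fos. It had 2164, 1889, 3000 and 3197 in WT PBS and 3467, 4095, 3724 and 2196 in WT glycerol. The C3-/- libraries had 1612, 1528, 2259 and 348.8 after PBS and 1786, 3796, 1241 and 2389 after glycerol. Both pairs of groups overlapped. Its differences were 0.39 ± 0.48 in WT (95% interval -0.63 to 1.41, adjusted p = 0.57) and 0.84 ± 0.48 in C3-/- (-0.18 to 1.86, adjusted p = 0.27). The C3-/- value was 0.26 without C3-/- PBS replicate 4 (adjusted p = 0.646) and 0.56 without C3-/- glycerol replicate 2 (adjusted p = 0.415). It was 1.35 within S1 to S13 (adjusted p = 0.0987) and 1.63, a call, with list and Y-linked terms (adjusted p = 0.00309).

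Myc (ENSMUSG00000022346; chromosome 15, 61985391 to 61990374, plus strand, 4 merged exons) encodes the growth regulator c-Myc, which drives ribosome and nucleotide synthesis. Its values were 135.8, 134.4, 126.2 and 174.3 in WT PBS and 1081, 1817, 1070 and 1290 in WT glycerol. They were 179.1, 175.9, 191.2 and 105.7 in C3-/- PBS and 1650, 1800, 698.9 and 1337 in C3-/- glycerol. Every glycerol library had at least 698.9 and every PBS library at most 191.2. Myc rose by 3.17 ± 0.29 in WT, 9.21-fold (adjusted p = 5.04e-06), and by 3.01 ± 0.29 in C3-/-, 8.42-fold (adjusted p = 3.89e-05). The responses differed by -0.16 ± 0.41 (95% interval -1.02 to 0.71, adjusted p = 0.979).

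Between-gene order was compared per kilobase of merged exon. In WT PBS the levels were highest for Jun (862.7 ± 216.5, SD, n = 4), Jund (782.3 ± 123.1) and Egr1 (571.5 ± 141.5), followed by Junb (456.4 ± 189.2) and Fos (429.9 ± 192.4). Atf3 (84.16 ± 36.58), Fosl2 (77.05 ± 22.02), Myc (52.52 ± 7.908) and Fosb (45.94 ± 35.75) came next, and Fosl1 stood at 0.8278 ± 0.7684. The mean ± SD ranges of neighbours in this order overlapped except between Fos and Atf3 and between Fosb and Fosl1. In WT glycerol the order per kilobase was Jund (2265 ± 2082), Junb (1445 ± 643.6), Jun (981.3 ± 109.5), Egr1 (751.7 ± 183.9), Atf3 (648.3 ± 239.5), Myc (483.8 ± 128.8), Fos (412.8 ± 17.12), Fosl1 (384.9 ± 243.2), Fosl2 (219 ± 32.07) and Fosb (39.3 ± 47.53). There, neighbours overlapped in the same sense except Fosl2 and Fosb, and Fos had the seventh highest mean.

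In C3-/- PBS the order per kilobase began with Jund (613.5 ± 132.3), Jun (401.5 ± 116.7), Egr1 (320.4 ± 177.4), Junb (286.2 ± 148.8) and Fos (178.3 ± 106.2). Myc (59.98 ± 14.26), Fosl2 (48.35 ± 5.765), Atf3 (16.55 ± 4.598), Fosb (3.883 ± 2.493) and Fosl1 (0.3849 ± 0.7698) made up the lower end, where the neighbours from Fosl2 down did not overlap. In C3-/- glycerol the leading genes were Jund (1751 ± 1203), Atf3 (751.2 ± 449), Junb (750.1 ± 263.8), Jun (552.9 ± 116.1), Egr1 (513.6 ± 245.4) and Myc (504.8 ± 179.6). Fosl1 (465.6 ± 626.3), Fos (408.8 ± 149.5), Fosl2 (106.7 ± 63.43) and Fosb (17.46 ± 4.169) followed, and from Fos down the neighbours did not overlap. Fosb was the lowest member after glycerol in both genotypes, and Fosl1 after PBS. The orders after glycerol include the libraries with repeated S numbers. In the C3-/- glycerol libraries within S1 to S13, Fos (531.6 and 528.9) lay above Fosl1 (198.1 and 270.2).

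**Figure D3:**
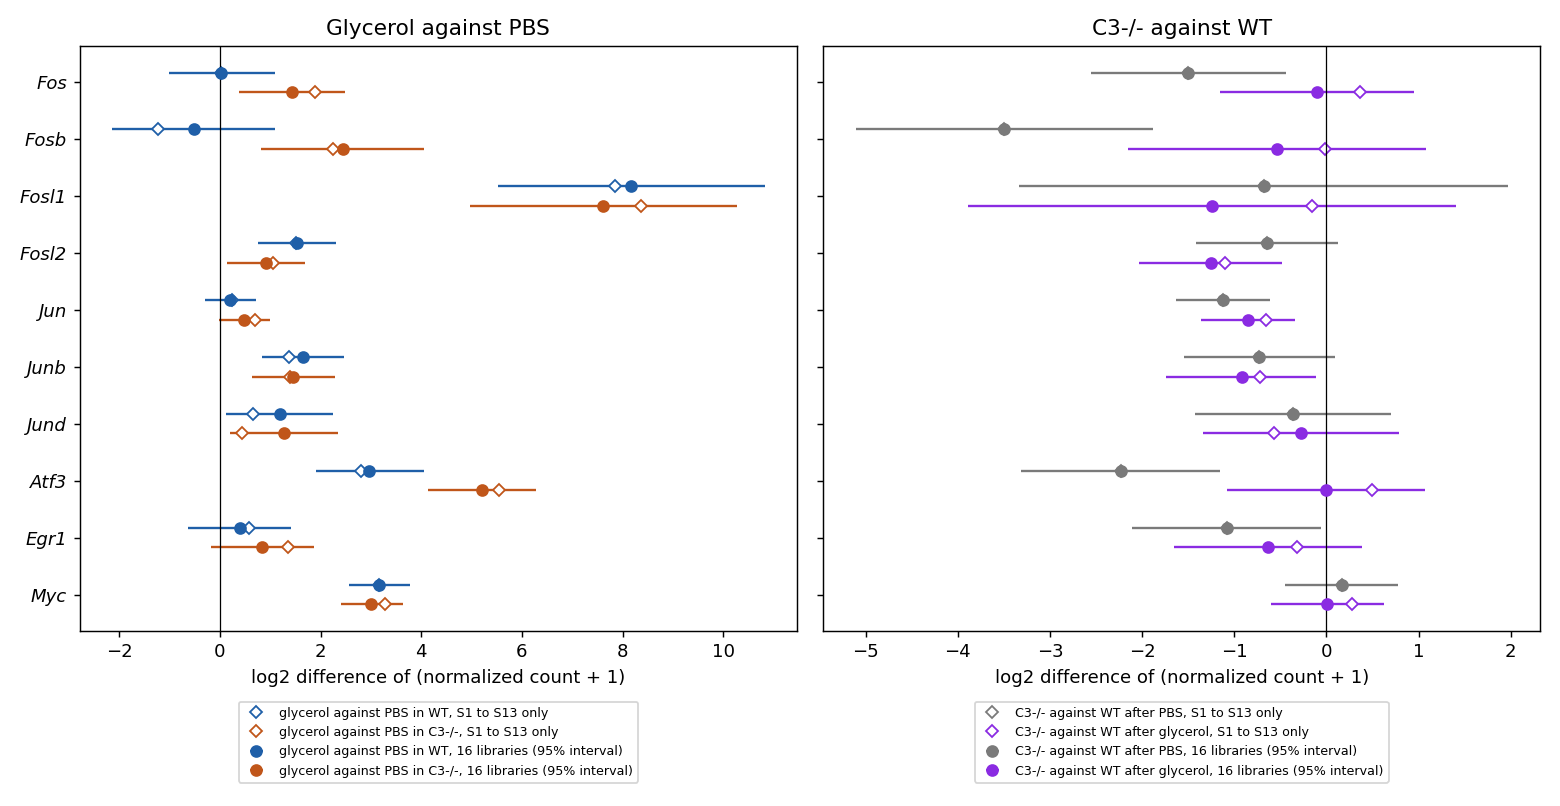
Log2 difference of each member with its 95% interval (filled circles, limma over 16 libraries) and the same difference within the S1 to S13 libraries (open diamonds), for glycerol against PBS in each genotype (left) and for C3-/- against WT after each injection (right). Fosl1, Atf3 and Myc lie farthest right of 0 on the left, and Fosb (-3.5), Atf3 (-2.23) and Jun (-1.12) lie left of 0 after PBS on the right.

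The genotypes already differed after PBS. Fosb, Atf3 and Jun were lower in C3-/- PBS than in WT PBS, 3 of the 10 members, and none was higher. By the same rule 1.19% of all tested genes were lower, and the median of the members was -0.91 against 0.02 over all genes. The Fosb difference was -3.5 ± 0.76 (ratio of means 0.0845, adjusted p = 0.0228), that of Atf3 -2.23 ± 0.51 (0.197, adjusted p = 0.0301) and that of Jun -1.12 ± 0.24 (0.465, adjusted p = 0.0208). Every C3-/- library was below every WT library for these 3 genes and for Fosl2, 4 members in all, where 13.1% of all genes separated that way. Fosl2 had a difference of -0.64 ± 0.36 (adjusted p = 0.653; adjusted p = 0.0211 when only the S1 to S13 libraries entered the fit). Fos (-1.5 ± 0.49, adjusted p = 0.174), Egr1 (-1.08 ± 0.48, adjusted p = 0.416) and Junb (-0.73 ± 0.38, adjusted p = 0.583) were not called, and Myc stood at 0.17 ± 0.29. With list and Y-linked terms Egr1 (-2.09, adjusted p = 0.00305) and Junb (-1.44, adjusted p = 0.0345) were called lower too, and Fos was at -2.14 (adjusted p = 0.0504). In that fit 2.11% of all genes were lower. Within S1 to S13, 4 members were called lower (Fosb, Atf3, Jun and Fosl2), against 10.2% of all genes.

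Leaving out 1 PBS library changed the sizes of these differences less than their calls. Fosb ran from -3.92 to -2.86, Atf3 from -2.52 to -2.04 and Jun from -1.28 to -0.92. All 3 had an adjusted p above 0.05 without C3-/- PBS replicate 1 (-3.56, -2.24 and -1.13), WT PBS replicate 3 (-3.3, -2.05 and -1.03) or WT PBS replicate 4 (-3.04, -2.04 and -0.99), from 0.0655 to 0.118. Over all genes, the number of calls went from 402 to 217, 219 and 211 in those fits. Without C3-/- PBS replicate 4, which was lowest of its group for Fos, Fosb, Fosl2, Jun, Junb, Egr1 and Myc, the Fosb difference was -2.86 (adjusted p = 0.0463), that of Jun -0.92 (0.0424) and that of Atf3 -2.15 (0.0572). Jun also missed the threshold without C3-/- PBS replicate 2 (-1.15, adjusted p = 0.0545). Atf3 kept its call in 1 of the 8 fits that left out a PBS library, the one without WT PBS replicate 2, and had adjusted p from 0.0513 to 0.118 in the other 7.

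Marker sums of some cell types were also lower in C3-/- PBS, among them those of neutrophils, which also express AP-1 genes. Summed over the 8 neutrophil markers in the matrix, normalized counts were 157.4 to 242.2 in WT PBS, 33.44 to 57.45 in C3-/- PBS, 537.4 to 1283 in WT glycerol and 71.6 to 237.9 in C3-/- glycerol. None of the 8 was at 0 in a whole group, 2 of 7 tested were lower in C3-/- after PBS and 6 of 7 after glycerol. Fibroblast and pericyte markers (6 genes) summed to 6018 to 9332 in WT PBS and 4164 to 5144 in C3-/- PBS, and macrophage and dendritic cell markers (10 genes) to 8982 to 9566 and 6780 to 8164. T and NK cell markers (6 genes) summed to 120.3 to 180.4 and 65.3 to 80.88. Over all 16 libraries limma called none of the fibroblast, macrophage or T and NK markers after PBS, with 4, 4 and 3 at an unadjusted p below 0.05. Within S1 to S13 it called lower 4 of 6 fibroblast, 5 of 10 macrophage, 3 of 5 T and NK and 5 of 5 neutrophil markers. It also called 1 macrophage marker higher and 1 of 6 endothelial markers lower. Of all genes, 10.2% were lower and 9.35% higher in that fit. The PBS sums of the genotypes overlapped for endothelial markers (13620 to 14510 in WT, 13200 to 14160 in C3-/-). They also overlapped for B cell markers (114.7 to 145.1 and 65.11 to 118) and for the kidney segment markers given above. Of 6 skeletal muscle markers only 2 are in the matrix, and their low sums were higher in C3-/- (19.02 to 27.1 and 28.17 to 160.6). The part of these cells in the Fosb, Atf3 and Jun differences was not tested. WT PBS libraries all held Ddx3y signal and 3 of 4 C3-/- PBS libraries did not. The 1 that did, replicate 4, had Fosb at 4.304, Jun at 815.9 and Atf3 at 28.91. The other 3 had 21.57 to 41.32, 1260 to 1725 and 28.67 to 49.79. Ddx3y signal goes partly with genotype, and its part in these differences was not tested.

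After glycerol, Fosl2 and Jun were lower in C3-/- than in WT and no member was higher. The share of all tested genes called lower was 4.85%, and the members' median was -0.58 against 0.04. Fosl2 had a difference of -1.25 ± 0.36 (ratio of means 0.487, adjusted p = 0.0367) and Jun of -0.85 ± 0.24 (0.563, adjusted p = 0.0316). Jun and Junb were the 2 members whose groups did not overlap, in the direction shown by 5.07% of all genes, although Junb did not pass (-0.92 ± 0.38, adjusted p = 0.145). Within S1 to S13, 1 member was called lower, against 14.7% of all genes: Fosl2 remained (-1.1, adjusted p = 0.00305) and Jun did not (-0.66, adjusted p = 0.0891). Neutrophil and kidney segment marker sums after glycerol are given above. Fibroblast and pericyte markers summed to 6768 to 13310 in WT glycerol and 3372 to 8002 in C3-/- glycerol, and macrophage and dendritic cell markers to 6913 to 8856 and 6115 to 11290. Their part in the Fosl2 and Jun differences was not tested. The authors' deposited table also called Fosl2 (-1.04 ± 0.37, adjusted p = 0.0321) and Jun (-0.83 ± 0.25, adjusted p = 0.00942) lower, and no other member, against 7.25% of its genes.

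Without C3-/- glycerol replicate 3 the Fosl2 difference was -0.8 (adjusted p = 0.0618) and that of Jun -0.69 (adjusted p = 0.0964). Fosl2 also missed the threshold, at sizes of -1.33 to -1.17, without C3-/- glycerol replicate 2 (adjusted p = 0.0557) and without WT glycerol replicates 1, 2 or 3 (0.0712, 0.103 and 0.051). Jun did so without WT glycerol replicates 1 or 2 (-0.86 and -0.77, adjusted p = 0.0628 and 0.0942). Myc differed between the genotypes by 0.01 ± 0.29 (95% interval -0.6 to 0.62). The Atf3 interval (-1.08 to 1.07) spans about a halving to a doubling. Its difference was 0.49 within S1 to S13 and -0.45 with list and Y-linked terms. Neither gene was shown to be equal in the genotypes. Fosl1 could not be placed as closely (-1.24 ± 1.24, -3.89 to 1.41), since its C3-/- glycerol values ran from 8.681 to 2825. Within S1 to S13 its difference was -0.16 (95% interval -1.81 to 1.5).

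No member passed the test of the difference between the glycerol responses in limma (0.438% of all genes did), and 2 had an unadjusted p below 0.05. These were Atf3, described above, and Fosb (2.96 ± 1.07, adjusted p = 0.298; 3.48 with adjusted p = 0.0549 within S1 to S13). Within S1 to S13, 1 member (Atf3) was called with a higher response in C3-/-, against 4.99% of all genes. Both genes had their lowest group mean in C3-/- PBS, as did every other member except Myc.

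Among Fos, Fosb, Jun, Junb and Egr1 the deviations of a library from its group mean correlated at 0.36 (Fosb with Egr1) to 0.88 (Jun with Egr1) over the 16 libraries, and at 0.8 to 0.96 over the 13 libraries S1 to S13. Correlations of the deviations from group means, over 16 libraries that share sections, library preparation and scaling, were 0.85 for Fos with Egr1, 0.76 for Fos with Jun, 0.63 for Fos with Fosb, 0.56 for Fosb with Jun, 0.53 for Fos with Junb and 0.46 for Junb with Egr1. The same pairs within S1 to S13 gave 0.92, 0.86, 0.9, 0.96, 0.83 and 0.8. Fosl1, in contrast, had deviations that followed Fosl2 (0.86) and Atf3 (0.65) over 16 libraries, values of 0.26 and -0.3 within S1 to S13, and -0.08 with Fos. Jund had -0.28 with Fos. Myc also followed the first set of genes within S1 to S13, at 0.68 (Fos) to 0.76 (Egr1). C3-/- PBS replicate 4 was the lowest of its group for Fos, Fosb, Jun, Junb and Egr1 (Egr1 at 348.8, the rest of the group at 1528 to 2259). The part of this library in the correlations was not tested. These values describe the libraries and carry no test.

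For each member the genes with the most similar log2 values over the 16 libraries were found (Pearson r, 12560 genes with a mean of at least 50 compared). Fos was closest to Nr4a1 (0.821), an immediate early nuclear receptor gene, and Egr1 to Btg2 (0.91) and Zfp36 (0.829), both rapid-response genes. Fosb and Jun were both closest to Ccn1 (0.861 and 0.912), a matricellular early gene, and Jun next to the myeloid genes Il1b (0.904) and S100a8 (0.882). S100a8 is among the neutrophil markers, and averaged 46.97 ± 9.401 in WT PBS and 5.499 ± 4.446 in C3-/- PBS (SD, n = 4). Fosl1 was closest to G6pdx (0.974), Plaur (0.974) and the oxidant-response gene Srxn1 (0.97), and Myc to Ptprn (0.982), Eif4ebp1 (0.982) and Srxn1 (0.974).

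Of the remaining members, Atf3 was closest to Uchl1 (0.964), Slc35b1 (0.957) and Creld2 (0.955), the last a gene of the endoplasmic reticulum stress response. Fosl2 was closest to Tmem263 (0.963), Rcn1 (0.96) and Zfp36l1 (0.955), and Junb to Tyro3 (0.929), Slc12a4 (0.924) and Trib1 (0.918). Jund was closest to Lypla2 (0.975), Arrb2 (0.975) and Zbtb21 (0.973). The other likeness values were 0.765 (Myo1g) and 0.752 (Btg2) for Fos, 0.821 (Myo1g) and 0.796 (Kif23) for Fosb, and 0.82 (Styk1) for Egr1. Because the groups differ, each r mixes the group differences with the spread inside groups.

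Of 30 other immediate early genes tested, 9 rose and 1 fell in WT (median 0.36), and 4 rose and 1 fell in C3-/- (median 0.61), where 12.5% and 3.68% of all genes were higher. These counts within S1 to S13 were 11 and 2 in WT and 11 and 1 in C3-/-, with 26.8% and 12.5% of all genes higher. Maff, a small Maf factor, rose by 3.72 ± 0.35 in WT (adjusted p = 7.69e-06) and 2.71 ± 0.35 in C3-/-, and Dusp5, a nuclear ERK phosphatase, by 3.27 ± 0.41 and 3.11 ± 0.41. Plk3, a stress kinase, rose by 1.43 ± 0.49 and 2.76 ± 0.49, Trib1 rose by 1.64 ± 0.26 in WT, and Ier3 by 1.31 ± 0.25 in C3-/-. Dusp1, the phosphatase that switches off JNK and p38, fell by 1.49 on the log2 scale in WT (SE 0.22) and by 0.89 in C3-/-. After PBS 6 of the 30 were lower in C3-/- and none higher, against 1.19% of all genes lower. That count was 15 within S1 to S13 (10.2% of all genes) and 12 with list and Y-linked terms (2.11%). Among the 6 were Dusp1 (-0.94 ± 0.22, adjusted p = 0.0346) and Plk3 (-2.06 ± 0.49, adjusted p = 0.0388). After glycerol 8 were lower and 1 higher (median -0.8), against 4.85% and 6.38% of all genes. The 8 included Maff (-1.54 ± 0.35, adjusted p = 0.0104) and Trib1 (-1.23 ± 0.26, adjusted p = 0.00598).

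Among 20 other bZIP genes, possible partners or competitors of AP-1, 7 rose and 1 fell in WT and 4 rose and 1 fell in C3-/- (11 and 1, and 6 and 1, within S1 to S13). Of all genes, 12.5% were higher in WT and 3.68% in C3-/- (26.8% and 12.5% within S1 to S13). Ddit3, which encodes CHOP, rose by 2.83 ± 0.47 and 3.65 ± 0.47, Atf5 by 3.03 ± 0.46 and 3.99 ± 0.46, and Cebpb by 2.61 ± 0.53 and 2.9 ± 0.53. Maf fell in both genotypes (-1.76 ± 0.31 and -1.91 ± 0.31). Creb5 and Crem rose in WT (3.17 ± 0.48 and 1.25 ± 0.22), were not called in C3-/- (0.92 ± 0.48 and 0.2 ± 0.22), and were lower in C3-/- after glycerol (-2.38 ± 0.48 and -1.46 ± 0.22). The test of the difference between the responses called neither.

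**Figure D4:**
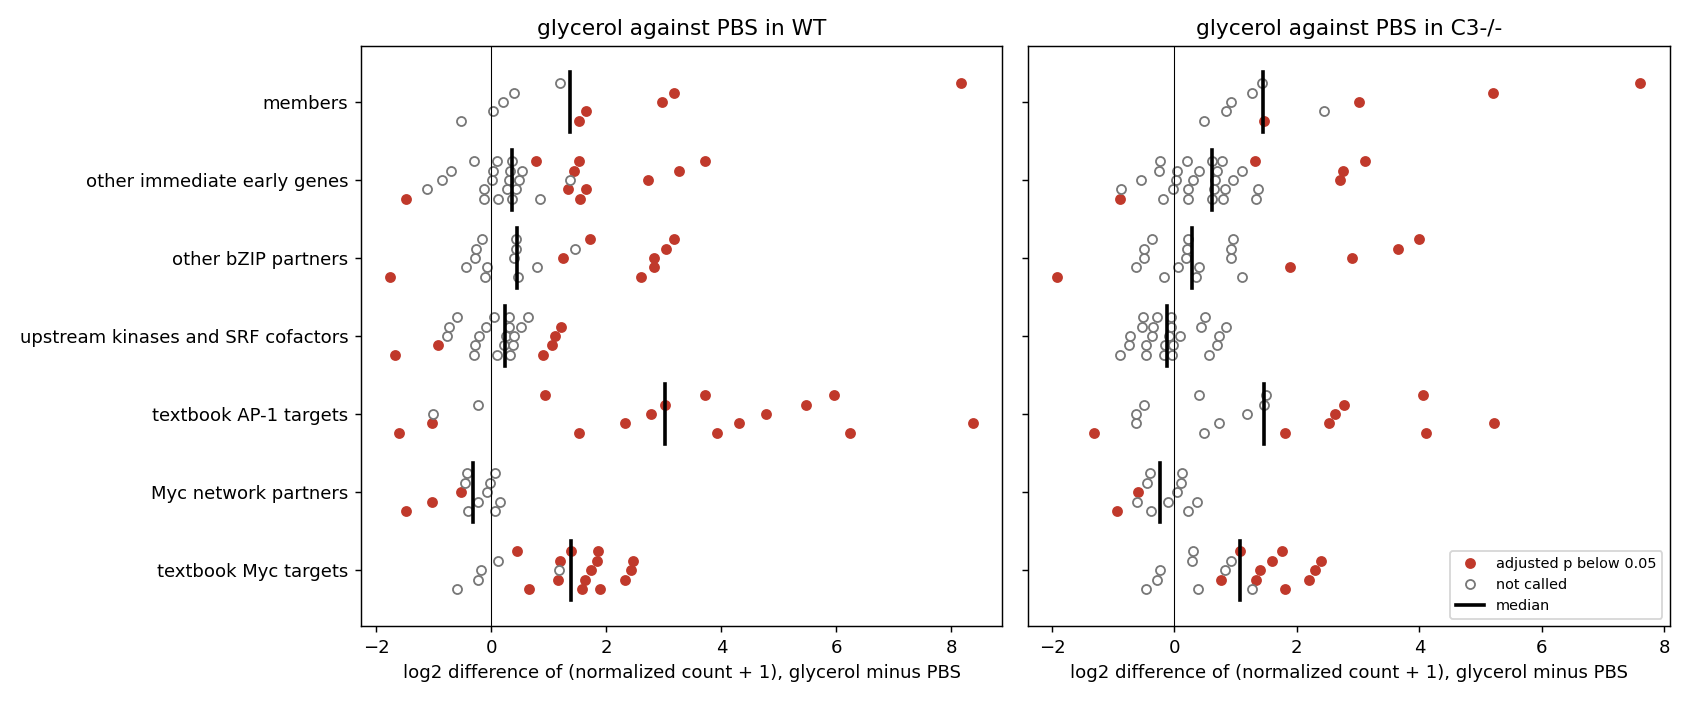
Log2 difference of glycerol against PBS for every tested gene of each list in WT (left) and C3-/- (right), with filled red points for genes at an adjusted p below 0.05, open points for the rest and a bar at the list median. The median of the AP-1 target list is at 3.02 in WT and 1.46 in C3-/-, and the kinase list lies around 0 in both.

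Upstream of the members, of 24 kinases and serum response factor cofactors 4 rose and 2 fell in WT (median 0.24), where 12.5% of all genes were higher and 13.3% lower. In WT within S1 to S13, 12 were higher and 6 lower, against 26.8% and 29.4% of all genes. In C3-/- limma called none of them, and 7 had an unadjusted p below 0.05. Within S1 to S13 the C3-/- count was 5 higher and 2 lower, against 12.5% and 10.8% of all genes. Map2k3, a kinase of p38, rose by 1.21 ± 0.22 in WT, and Map2k6 had a change of -1.68 ± 0.33. Rps6ka1, the ERK-driven kinase RSK1, was higher in C3-/- under both injections (1.57 ± 0.2 after PBS, adjusted p = 0.000356, and 1.56 ± 0.2 after glycerol, adjusted p = 0.000183).

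Of 17 textbook AP-1 targets tested, 13 rose and 2 fell in WT (median 3.02), and 7 rose and 1 fell in C3-/- (median 1.46). Of all genes, 12.5% were higher and 13.3% lower in WT, and 3.68% and 1.96% in C3-/-. Within S1 to S13 these target counts were 13 and 3 in WT and 10 and 2 in C3-/-. There 26.8% and 29.4% of all genes were called in WT, and 12.5% and 10.8% in C3-/-. Timp1, a metalloproteinase inhibitor, rose by 8.38 ± 0.73 in WT and 4.11 ± 0.73 in C3-/-, Lif by 6.24 ± 0.42 and 2.62 ± 0.42, and Il6 by 5.47 ± 0.61 and 2.77 ± 0.61. Spp1, which encodes osteopontin, rose by 4.78 ± 0.47 and 1.81 ± 0.47, Plaur, the urokinase receptor, by 3.72 ± 0.42 and 2.53 ± 0.42, and Areg, an EGF receptor ligand, by 4.3 ± 0.68 and 5.22 ± 0.68. After glycerol 10 of the 17 were lower and 1 higher in C3-/- (median -1.97), against 4.85% and 6.38% of all genes. Those counts were 10 and 3 within S1 to S13, against 14.7% and 15.7%. The test of the difference between the responses called 1 of the 17, lower in C3-/-, with 8 at an unadjusted p below 0.05 (0.438% of all genes called). Within S1 to S13 that test called 6 lower and 2 higher, against 5.45% and 4.99%. The C3-/- PBS and WT PBS groups gave no call in limma among the 17, with 4 at an unadjusted p below 0.05. Within S1 to S13, 1 was higher and 3 lower, against 9.35% and 10.2% of all genes. These targets are also made by leukocytes and fibroblasts, whose marker sums after PBS and after glycerol are given above, and their part was not tested.

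Around Myc, 3 of 12 network genes fell in WT and none rose (median -0.32), and 2 fell in C3-/-. Of all genes, 13.3% were lower in WT and 1.96% in C3-/-. Mxi1, a Max partner that opposes Myc, fell in both (-1.48 ± 0.24 and -0.93 ± 0.24), as did Mxd4 (-0.53 ± 0.16 and -0.59 ± 0.16), and Mxd1 fell in WT (-1.03 ± 0.19). Of 19 textbook Myc targets 14 rose in WT and 10 in C3-/-, and none fell (medians 1.39 and 1.07). The shares of all genes that rose were 12.5% and 3.68%. Srm, spermidine synthase, rose by 2.42 ± 0.3 and 2.3 ± 0.3, and the nucleolar genes Nop58 by 1.84 ± 0.23 and 1.33 ± 0.23 and Mybbp1a by 1.89 ± 0.26 and 1.6 ± 0.26. Rrp12 rose by 1.86 ± 0.25 and 1.4 ± 0.25, and Nolc1 by 1.15 ± 0.14 and 0.76 ± 0.14. After glycerol limma called none of the 19 between the genotypes, with 5 at an unadjusted p below 0.05. Within S1 to S13, 7 were called lower in C3-/-, against 14.7% of all genes.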

How the data were processed

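RNA from 16 libraries of mouse kidney sections was measured. The build was GRCm38, and the tools named are STAR (2.7.1), R (3.6.1) and DESeq2, all per the submitters' processing notes; the annotation named for the matrix is Ensembl release 96. The counting program and its strand setting are not stated. The values analysed are a signal unit: DESeq2-normalized counts that the authors deposited for 20525 genes. Steps of 1 read could not be recovered (1.78% to 2.11% of a library's values were whole multiples of its smallest, tolerance 0.01), so no count model was run and no counting interval is given. The authors' deposited tables give log2 fold changes, their standard errors, a test score per gene and p-values from DESeq2 for 3 comparisons, and were quoted as such.

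Here, log2(normalized count + 1) was fitted with limma 3.58.1 (R 4.3.3, mean-variance trend) over all 16 libraries and 4 groups, for genes at 10 or more in at least 4 libraries, with 5 contrasts and Benjamini-Hochberg adjustment over all genes tested. The script was tested on simulated data. Alternatives were a pseudocount of 8, other filters (none, or a mean of at least 100), 2 other scalings, other spread models, only the groups compared, a replicate block, only the libraries S1 to S13, S number list and Y-linked signal as terms, and each library left out. Library weights could not be estimated and were not run.

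The members, related lists and marker lists were chosen with earlier results of these data known. Named were all members, from each related list up to 4 genes with the smallest unadjusted p after glycerol in each genotype, and for likeness the 3 genes with the highest r per member, other than predicted genes. A few genotype values of such genes were chosen after they were seen, as was the single naming of Rps6ka1. Ccn1, Ccn2, Mrtfa and Mrtfb were matched through RefSeq synonyms. Gene spans and merged exon lengths come from GENCODE M21, promoter sequences from RefSeq on GRCm38.p6.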

Additional observations from a re-analysis of the deposited data

Results flagged for a closer look

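In 5 of the 40 member-by-group sets of 4 libraries, the highest library stood farther from the others than Dixon's 95% limit for 4 samples (0.829 of the range) allows, where chance gives about 1 in 20. WT glycerol replicate 4, which has a repeated S number, was the library in 3 of them: Fosb at 688.6 (the other 3 at 75.99 to 135.9), Junb at 5542 (2504 to 2700) and Jund at 8972 (1820 to 2446). Jun was at 3649 in WT glycerol replicate 2 (2897 to 3009 in the others). Fosl1 was at 3.13 in C3-/- PBS replicate 2, and at 0 in the other 3 libraries of that group, where any value above 0 would pass the limit, so this set says nothing against chance. WT glycerol replicate 4 also had 3374 genes at 0, against 190 to 982 in the other 15 libraries.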

How the results depend on the processing

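The fits without 1 library tested 17899 to 17973 genes, and their all-gene counts below take both directions. The WT glycerol calls were the steadiest. Without each library of the 2 WT groups in turn 5 members were called, beside 3429 to 4776 of all genes. Over the other alternatives Fosl1, Fosl2, Junb, Atf3 and Myc kept their direction. After glycerol in C3-/-, 8 members were called with S number list and Y-linked signal as terms (10.3% of all genes higher). These were Fos, Fosl2, Jun and Egr1 beside the 4. With only the 2 groups compared 2 of 9 tested were called, where Fosl1 did not pass the filter and Junb missed the threshold. Without 1 library of the C3-/- groups 3 to 5 members were called, beside 491 to 1582 of all genes. For C3-/- against WT after glycerol the count of 2 (4.85% of all genes lower) became 1 within S1 to S13 (14.7%). It became 5 with list and Y-linked terms (14.3%), and was 0 to 2 without 1 glycerol library, beside 1361 to 4367 of all genes. It was 4 with the list term and 0 with only the 2 groups compared (counts over all genes are given below). After PBS the 3 calls (1.19% of all genes lower) became 5 with list and Y-linked terms (2.11%). They became 0 to 3 without 1 PBS library, beside 211 to 544 of all genes. For the difference between the responses the count of 0 became 1 within S1 to S13 (4.99% of all genes higher). It was 1 with list and Y-linked terms (4.97%) and 0 to 1 without 1 library, beside 38 to 211 of all genes. The cause of these shifts was not tested.

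The replicate numbers did not pair the libraries (same-number correlations of deviations from -0.692 to 0.385). With the replicate block, 5 members were called in WT, 3 in C3-/-, 0 after glycerol between genotypes, 0 after PBS and 0 for the difference between the responses. Over all genes these counts were 3915, 632, 1638, 311 and 41 of 18035.

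Some differences that were not called over all 16 libraries changed sign. After glycerol between genotypes, Fos was 0.37 within S1 to S13 and 0.03 with the list term, Atf3 was 0.49, 0.02 and, with quantile normalization, 0.01, and Myc was -0.32 with list and Y-linked terms. After PBS Myc was -0.44 with those terms. For the difference between the responses, within S1 to S13 and with list and Y-linked terms, Fosl1 was 0.53 and 0.15, Myc 0.11 and 0.12, and Jund -0.21 and -0.35 (-0.38 with the list term), and Junb was 0.01 within S1 to S13. Leaving out 1 library gave ranges that crossed 0 for Fos in WT (-0.15 to 0.31), for Fos (-0.25 to 0.16), Fosb (-0.88 to 0.18), Fosl1 (-2.35 to 0.38), Jund (-0.68 to 0.26), Atf3 (-0.36 to 0.57) and Myc (-0.15 to 0.30) after glycerol between genotypes, and for Fosl1 (-1.67 to 1.06), Junb (-0.46 to 0.12), Jund (-0.31 to 0.62), Egr1 (-0.13 to 0.76) and Myc (-0.35 to 0.14) in the difference between the responses. Of the single-gene values, 28 of the leave-one-out values and 15 of the others changed sign.

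Over all genes the count of calls also changed with the fit. In WT it went from 4666 to 9925 within S1 to S13, 8886 with list and Y-linked terms and 8339 with the list term. In C3-/- it went from 1016 to 4118, 3393 and 2608, and to 632 with the block and 298 with only the 2 groups. After glycerol between genotypes it went from 2025 to 5373, 6068 and 5720, and to 278 with the 2 groups. After PBS it went from 402 to 3448, 628 and 1510, and to 4472 with the 2 groups, and for the difference between the responses from 79 to 1845, 1580 and 1324, to 141 with a pseudocount of 8 and to 41 with the block. Without WT glycerol replicate 4 alone, 17899 genes were tested. The count was then 4713 in WT, 2785 in C3-/-, 4367 after glycerol between genotypes, 614 after PBS and 211 for the difference between the responses. The comparison after PBS holds no library with a repeated S number, and the members' differences there were the same within S1 to S13. Standard errors changed, as for Fosl2 (-0.64 in both fits, with 0.36 over all libraries and 0.17 within S1 to S13). Each fit shares its spread estimate per gene across all its groups. Unknown depth leaves the precision of Fosl1 in PBS, at 0 to 3.13, unstated.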
